A study of Homo sapiens with 12 samples.

Results

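The genes described here are the enzymes of the pentose phosphate pathway and of nucleotide synthesis. They were taken by gene symbol from a fixed list of 35 enzymes, and 33 of the 35 were detected, out of 12507 genes detected in all. Detection required a probe with p under 0.01 against the negative controls on 4 or more of the 12 arrays. The detected enzymes comprise 8 of the pentose phosphate pathway and of phosphoribosyl pyrophosphate (PRPP) synthesis, 10 of purine synthesis, 5 of pyrimidine synthesis and 10 of salvage and turnover. Neither ADSSL1, the muscle form of adenylosuccinate synthetase, nor SAMHD1, which degrades deoxynucleotides, was detected. SAMHD1 was detected on 0 of 12 arrays, with raw signals of 94.4 to 128, and of the 3 ADSSL1 probes only 1 was, on 1 array. PNP was found under its older symbol NP.

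RNA came from established human leukemia cell lines, Jurkat and Molt4 of T cell acute lymphoblastic leukemia (T-ALL) and Nalm6 and RS4;11 of its B cell precursor form (BCP-ALL). Each line was stably transduced with lentiviral pLKO.1-mCherry that carried shCREB2 or shCREB3, both aimed at the transcription factor CREB, or shControl, a scrambled shRNA. All cells, the controls included, thus carried a lentivirus. There was 1 Illumina BeadChip array per line and vector, which gives 12 arrays and 4 per vector, so the cell line is the replicate and each lineage is represented by 2 lines. Signals are given on the log2 scale after quantile normalization, in the order Jurkat, Molt4, Nalm6 and RS4;11 wherever 4 values are listed, and a difference of 1 on this scale is a doubling. A gene passed the test when its p-value from limma, adjusted by Benjamini-Hochberg over all 12507 genes, was under 0.05. The 3 arrays of a line came from cells transduced with different vectors, and thus from separate cultures. Within a line, vector and culture cannot be told apart. The p-values for the shRNAs and for the lineages measure the spread between these lines only. Those of the F-test between the lines rest on the spread left within lines once the vector averages are removed. That is the same estimate as in the tests of each shRNA alone. A lower signal can come from fewer cells that make the RNA or from less RNA per cell, which bulk RNA cannot tell apart.

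The pentose phosphate pathway splits off from glycolysis. Its oxidative branch yields NADPH, its non-oxidative branch exchanges sugars with glycolysis, and both can supply ribose 5-phosphate, which PRPP synthetases activate to PRPP. Purines are built stepwise on PRPP to IMP, from which separate branches lead to AMP and GMP, whereas the pyrimidine ring is made first and then joined to PRPP. Salvage enzymes recycle bases and nucleosides into nucleotides. Lymphoid cells depend on this balance to an unusual degree: inherited loss of ADA or PNP causes immunodeficiency, and blood cancers are treated with drugs that act on these enzymes or are activated by them. CREB binds the cAMP response element (CRE), TGACGTCA, and its shorter cores, and MYC binds the E-box CACGTG.

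Promoter sequence bears on this set because the shRNAs target a factor that binds DNA. RefSeq promoter windows on GRCh38.p14, each from 250 bases before to 50 after a start, were matched for 33 of the 35 genes, 3 of them under a current symbol. ADSL and IMPDH2 were not matched. The full CRE, TGACGTCA, occurred in 1 of 44 windows of these genes, that of UMPS, against 1.85% of all 35116 windows. A CRE core, TGACG or CGTCA on either strand, occurred in 12 of the 44 windows (27.3%) against 24.6% of all windows, where a full CRE also counts as a core. The E-box CACGTG, which reads the same on both strands, was present in 6 of the 44 windows (13.6%) against 7.26% of all windows. The windows with an E-box belonged to ATIC, DCK, DHODH, NME1, PAICS and PPAT. PAICS and PPAT share the same E-box, which is counted for each. These matches describe the sequence and were not tested as sites.

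The stretches below are the 100 bases before the start, 5′ to 3′ on the strand of the gene, with CRE, core and E-box letters in capitals. PRPS1 (chrX:107628410-107628509, plus strand), RPE (chr2:210002538-210002637, plus strand) and PNP (chr14:20469306-20469405, plus strand) are shown because their transcripts fell with shCREB2, and DGUOK (chr2:73926780-73926879, plus strand) because its transcript rose. UMPS (chr3:124730352-124730451, plus strand) carries the only full CRE of the set, and ATIC (chr2:215311959-215312058, plus strand) an E-box near its start.
PRPS1: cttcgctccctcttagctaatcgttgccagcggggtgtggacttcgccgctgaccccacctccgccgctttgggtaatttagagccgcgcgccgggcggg
RPE: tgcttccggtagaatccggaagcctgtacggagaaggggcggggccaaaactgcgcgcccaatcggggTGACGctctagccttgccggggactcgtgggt
PNP: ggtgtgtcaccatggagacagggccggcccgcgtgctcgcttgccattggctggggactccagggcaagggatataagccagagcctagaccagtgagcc
DGUOK: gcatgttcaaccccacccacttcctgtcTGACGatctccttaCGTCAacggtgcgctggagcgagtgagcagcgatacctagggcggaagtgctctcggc
UMPS: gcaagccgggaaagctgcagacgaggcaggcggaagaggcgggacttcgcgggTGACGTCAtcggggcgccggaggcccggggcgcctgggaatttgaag
ATIC: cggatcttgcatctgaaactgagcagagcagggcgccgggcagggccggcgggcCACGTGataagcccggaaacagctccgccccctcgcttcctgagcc
RPE holds 1 CRE core in these 100 bases and DGUOK holds 2, while PRPS1 and PNP hold none of the letters searched. PPAT and PAICS, both enzymes of the purine route, lie on opposite strands of chromosome 4. The PPAT start and 1 of the 3 PAICS starts with a window are 137 bases apart. A single E-box lies in these overlapping windows, here with 30 bases around it on the PPAT strand (chr4:56435780-56435809, minus strand).
PPAT: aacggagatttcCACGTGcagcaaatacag

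Between 14318 and 15658 of the 47314 probes used were detected per array. Every array correlated best with an array of its own line. The shCREB2 array of Nalm6 stood apart, since its closest match correlated at 0.9703, whereas each of the other 11 had a match at 0.987 or more. CREB1, which encodes CREB, had log2 signals of 11.45, 12.02, 12.14 and 11.72 with shCREB2, 11.62, 12.16, 12.11 and 12.25 with shCREB3 and 11.46, 11.70, 11.84 and 12.01 with shControl. On average it was not lower on the arrays labelled shCREB2 and shCREB3 (average difference 0.18, adjusted p = 0.205), and directions below hold for the arrays as labelled. These arrays measure mRNA, and CREB protein was not analysed here. The lineage labels fitted the markers: 6 of 6 T lineage genes were detected and higher in the T-ALL lines, with summed log2 signals of 13.81 to 14.14 there against 9.51 to 9.83 in the BCP-ALL lines, and 5 of 6 B lineage genes were detected and lower in T-ALL, with summed log2 signals of 9.99 to 10.32 against 14.64 to 15.07 in BCP-ALL. Among 4 myeloid genes 1 was detected, and no erythroid gene was.

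With both shRNAs averaged, 0 of the 33 enzymes passed the test, where 0.967% of all genes did. The lowest averages were those of RPE, PNP, PRPS1 and IMPDH2, and the highest those of DGUOK, DCK, IMPDH1 and PGLS. The median log2 difference over the 33 enzymes was -0.05, against 0.01 over all genes, with 21 enzymes below and 12 above 0. By role the median was -0.02 for the pentose phosphate and PRPP enzymes, -0.15 for purine synthesis, -0.05 for pyrimidine synthesis and 0.01 for salvage. Unadjusted, 15 of the 33 had a p under 0.05 in limma, as had 21.9% of all genes. Lower than in shControl on all 8 shCREB2 and shCREB3 arrays were 4 enzymes, RPE, PRPS1, IMPDH2 and PNP, where 3.61% of all genes were. Higher on all 8 were PGLS and DGUOK, where 4.81% of all genes were.

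**Figure D1:**
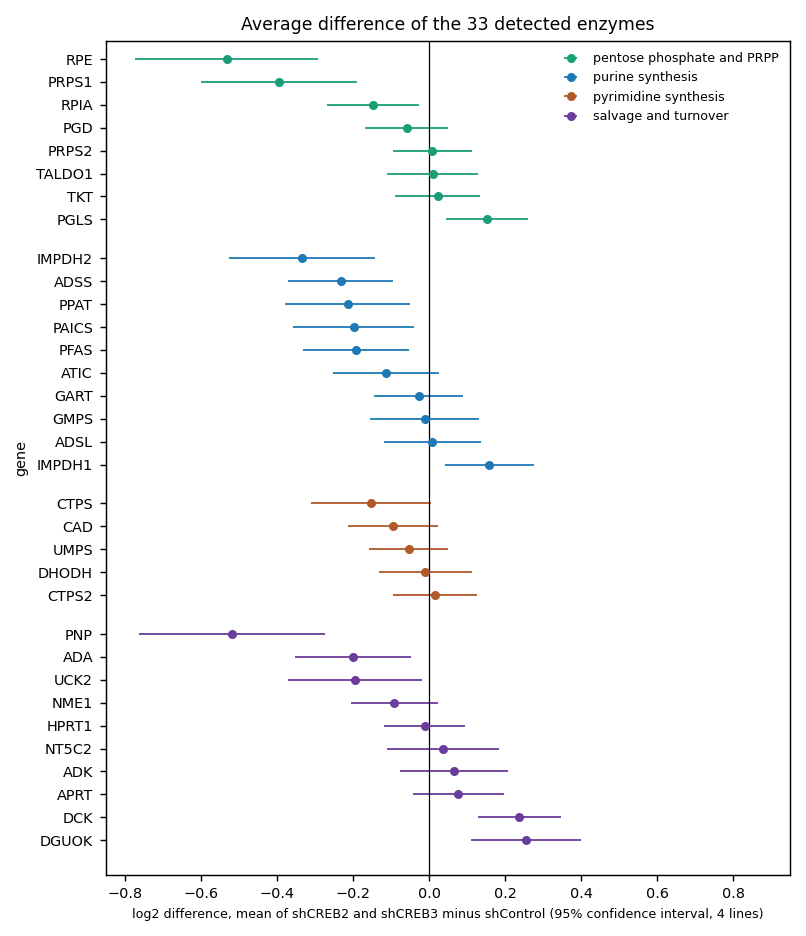
Log2 difference of each of the 33 detected enzymes, mean of shCREB2 and shCREB3 minus shControl, with the 95% confidence interval over 4 cell lines, grouped by role in the pathway. RPE, PNP and PRPS1 lie farthest below 0 and DGUOK and DCK farthest above it, and none passed the test over all genes.

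Each shRNA alone gave more calls. With shCREB2, 3 of the 33 enzymes fell (PNP, PRPS1 and RPE), where 4.27% of all genes were called lower, and 1 rose (DGUOK), where 3.73% were called higher. With shCREB3, 1 of the 33 fell (IMPDH2), where 1.18% were called lower, and 0 rose, where 0.448% were called higher. The median log2 difference over the 33 enzymes was -0.04 with shCREB2 and -0.03 with shCREB3, each against 0.01 over all genes. Of the 16 fits without 1 line or 1 array, PNP kept its call in 11, RPE in 9, PRPS1 in 7, DGUOK in 4 and IMPDH2 in 4, with no change of sign. Without Jurkat, without Molt4, and without the shCREB2 array of either or the shControl array of Molt4, 0 of the 33 passed for shCREB2, whereas without the shCREB2 array of Nalm6 there were 6, the same 4 among them. IMPDH2 kept its call only without RS4;11, its shControl or shCREB3 array, or the shCREB2 array of Nalm6, and was at -0.36 (adjusted p = 0.086) without Nalm6. It also lost it with background correction (normexp), with median scaling, with no detection filter and in the normalized gene means that the authors deposited. PNP lost its call without Jurkat, Molt4, the shCREB2 array of either, or the shControl array of Molt4, and RPE lost it without these and without the shControl arrays of Jurkat and Nalm6. PRPS1 kept its call without Nalm6, without RS4;11, and without any 1 array of these lines except the shControl array of Nalm6, and DGUOK only without Nalm6, its shCREB2 or shCREB3 array, or the shCREB2 array of RS4;11. DGUOK also lost its call with normexp, in the deposited gene means, with no detection filter and with the mean of its probes, and PRPS1 with no detection filter. With no pairing by line 0 of the 33 passed for either shRNA. A paired t-test, as named in the study's methods, takes the spread from the 4 differences of each shRNA alone. Its unadjusted p was under 0.05 for PNP with shCREB2 and IMPDH2 with shCREB3, but not for RPE, PRPS1 or DGUOK with shCREB2. For the average of both shRNAs, 4 enzymes passed without RS4;11 (RPE, PNP, PRPS1 and IMPDH2) and 3 without its shCREB3 array (RPE, PNP and DCK). The share of all genes that passed in each fit without a line or an array is not given here. A change in these counts is therefore not read as particular to the enzymes.

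**Figure D2:**
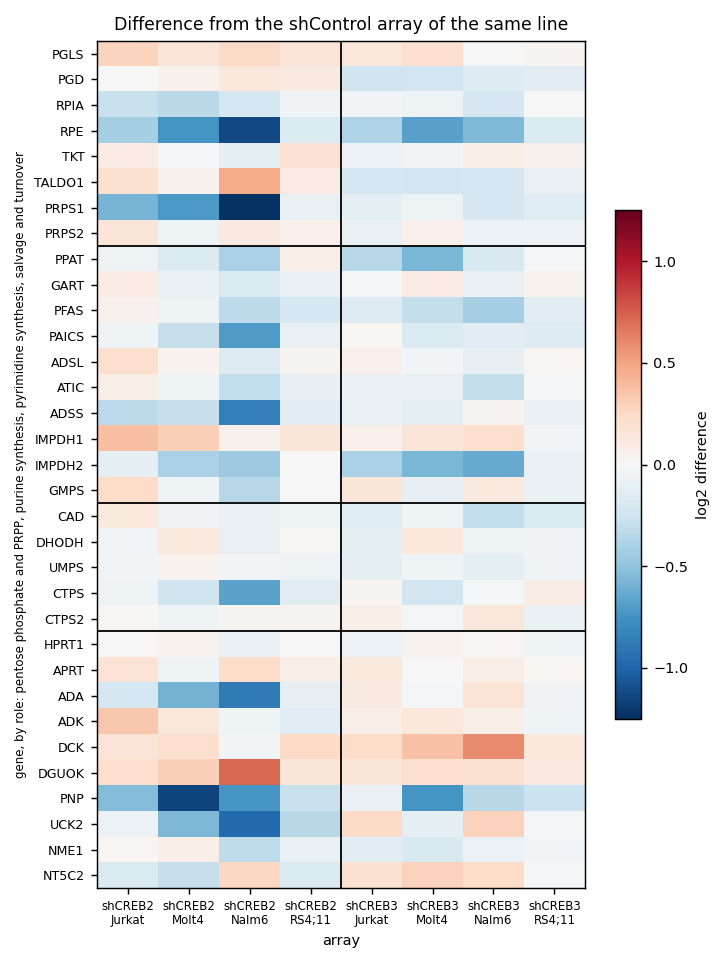
Log2 difference of each shCREB2 and shCREB3 array from the shControl array of the same line (columns) for the 33 enzymes (rows, with black lines between the roles). Blue is lower and red higher than shControl, and the shCREB2 column of Nalm6 holds the deepest colors while both RS4;11 columns are pale.

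In the pentose phosphate group the non-oxidative enzyme RPE and the PRPP synthetase PRPS1 fell with shCREB2, and no other enzyme of the group passed the test against shControl. RPE, which interconverts ribulose and xylulose 5-phosphate, had log2 signals of 7.98, 7.50, 7.56 and 8.42 with shCREB2, 8.01, 7.57, 8.14 and 8.41 with shCREB3 and 8.39, 8.24, 8.69 and 8.59 with shControl. In every line both shCREB arrays lay below shControl, by the least in RS4;11. RPE fell by 0.62 on the log2 scale (standard error 0.13, adjusted p = 0.022) with shCREB2, and its difference with shCREB3 was -0.45 (standard error 0.13, adjusted p = 0.114). With background correction by normexp the shCREB2 difference was -1.0, and in the deposited gene means, which average all probes of a gene, it was -0.37. PRPS1, which makes PRPP from ribose 5-phosphate, had log2 signals of 10.12, 9.65, 9.32 and 10.23 with shCREB2, 10.60, 10.31, 10.35 and 10.17 with shCREB3 and 10.71, 10.37, 10.56 and 10.32 with shControl. It was lowest with shCREB2 in Jurkat, Molt4 and Nalm6 but not in RS4;11, where the 3 arrays lay close together. PRPS1 fell by 0.66 on the log2 scale (standard error 0.15, adjusted p = 0.031) with shCREB2, against -0.13 (standard error 0.15, adjusted p = 0.717) with shCREB3. All 4 shCREB2 arrays lay below every shControl array for PRPS1. PRPS2, its paralog, had log2 signals of 9.66, 9.31, 6.92 and 9.17 with shCREB2, 9.42, 9.44, 6.73 and 9.03 with shCREB3 and 9.51, 9.38, 6.81 and 9.11 with shControl. It did not pass for either shRNA (shCREB2 0.06, 95% confidence interval -0.08 to 0.20), and its low level in Nalm6 is described with the lines.

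RPIA, which makes ribose 5-phosphate from ribulose 5-phosphate, had log2 signals of 9.92, 9.80, 9.29 and 9.73 with shCREB2, 10.16, 10.07, 9.30 and 9.78 with shCREB3 and 10.20, 10.13, 9.51 and 9.77 with shControl. It was lower with shCREB2 in all 4 lines, least in RS4;11, with a difference of -0.22 (standard error 0.06, adjusted p = 0.066). PGLS, the lactonase of the oxidative branch, had log2 signals of 9.25, 9.28, 9.41 and 8.97 with shCREB2, 9.12, 9.33, 9.18 and 8.85 with shCREB3 and 8.98, 9.12, 9.17 and 8.81 with shControl. All 8 of its differences from shControl were positive, with an average of 0.15 (standard error 0.05, adjusted p = 0.125). PGD, a dehydrogenase of that branch, had log2 signals of 10.85, 10.86, 10.76 and 10.81 with shCREB2, 10.60, 10.58, 10.47 and 10.56 with shCREB3 and 10.85, 10.81, 10.63 and 10.70 with shControl. Its shCREB3 array was the lowest of the 3 in each line, and the difference with shCREB3 was -0.19 (standard error 0.05, adjusted p = 0.084). TALDO1, transaldolase, had log2 signals of 11.91, 11.78, 12.29 and 11.61 with shCREB2, 11.51, 11.50, 11.62 and 11.42 with shCREB3 and 11.71, 11.73, 11.83 and 11.51 with shControl. Its shCREB2 array was the highest and its shCREB3 array the lowest of the 3 in each line. TKT, transketolase, had log2 signals of 11.99, 11.57, 11.96 and 11.72 with shCREB2, 11.82, 11.55, 12.16 and 11.60 with shCREB3 and 11.88, 11.58, 12.08 and 11.54 with shControl. The vectors were not separated for TKT, whose average difference was 0.02 (95% confidence interval -0.09 to 0.14).

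In purine synthesis 8 of the 10 detected enzymes lay below 0 on average, with IMPDH2 lowest. IMPDH2, the main form of the enzyme that commits IMP to GMP in dividing lymphocytes, had log2 signals of 11.55, 11.51, 11.46 and 12.14 with shCREB2, 11.27, 11.34, 11.28 and 12.06 with shCREB3 and 11.67, 11.91, 11.91 and 12.15 with shControl. With shCREB3 it was the lowest of the 3 arrays in all 4 lines, with differences from shControl of -0.40, -0.58, -0.63 and -0.09, the smallest in RS4;11. IMPDH2 fell by 0.43 on the log2 scale (standard error 0.09, adjusted p = 0.046) with shCREB3, and its difference with shCREB2 was -0.24 (standard error 0.09, adjusted p = 0.113). IMPDH1, the other form of the enzyme, had log2 signals of 10.51, 10.29, 10.94 and 11.14 with shCREB2, 10.20, 10.16, 11.09 and 10.95 with shCREB3 and 10.13, 9.9969, 10.89 and 10.99 with shControl. This probe was higher than shControl on 7 of 8 arrays, with an average of 0.16 (standard error 0.05, adjusted p = 0.134). The other 2 probes of IMPDH1 detected on all 12 arrays, both dimmer, did not share that sign, with -0.17 and -0.05 for shCREB2 and -0.07 and -0.07 for shCREB3, so that no direction is given for the gene. GMPS, which completes GMP, had log2 signals of 10.72, 10.24, 9.78 and 10.11 with shCREB2, 10.64, 10.20, 10.26 and 10.03 with shCREB3 and 10.49, 10.30, 10.14 and 10.10 with shControl. Each shRNA lay above shControl in 2 of 4 lines for GMPS, with an average difference of -0.01 (95% confidence interval -0.15 to 0.13).

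On the AMP side, ADSS, the adenylosuccinate synthetase of most tissues, had log2 signals of 9.69, 9.61, 8.93 and 9.93 with shCREB2, 9.94, 9.79, 9.82 and 9.99 with shCREB3 and 10.02, 9.90, 9.79 and 10.07 with shControl. It was lowest with shCREB2 in every line, with Nalm6 farthest down, and the difference was -0.41 (standard error 0.12, adjusted p = 0.062). ADSL, which acts both on the way to IMP and after ADSS, had log2 signals of 12.53, 12.25, 11.90 and 12.05 with shCREB2, 12.41, 12.18, 11.96 and 12.04 with shCREB3 and 12.34, 12.21, 12.06 and 12.01 with shControl. No vector stood apart for ADSL, whose average difference was 0.01 (95% confidence interval -0.12 to 0.14). Of the enzymes that lead to IMP, PAICS had log2 signals of 12.25, 12.07, 11.41 and 12.0023 with shCREB2, 12.33, 12.17, 11.98 and 11.93 with shCREB3 and 12.30, 12.35, 12.11 and 12.09 with shControl. Its shCREB2 array in Nalm6 was the lowest of all 12, and its difference with shCREB2 was -0.28 (standard error 0.10, adjusted p = 0.119). PFAS had log2 signals of 10.02, 9.70, 9.87 and 10.12 with shCREB2, 9.79, 9.47, 9.79 and 10.20 with shCREB3 and 9.96, 9.76, 10.20 and 10.33 with shControl. For PFAS the shCREB3 array lay below shControl in all 4 lines, with a difference of -0.25 (standard error 0.07, adjusted p = 0.115). ATIC, the last enzyme before IMP, had log2 signals of 11.97, 11.64, 11.06 and 11.47 with shCREB2, 11.82, 11.60, 11.07 and 11.56 with shCREB3 and 11.90, 11.69, 11.37 and 11.58 with shControl. It was lower than shControl with shCREB2 in 3 of 4 lines and with shCREB3 in 4 of 4, with an average of -0.11 (standard error 0.06, adjusted p = 0.318). GART, an enzyme with several activities in the route, had log2 signals of 10.64, 10.58, 10.37 and 10.25 with shCREB2, 10.52, 10.76, 10.45 and 10.38 with shCREB3 and 10.54, 10.66, 10.55 and 10.34 with shControl. It was lower than shControl with shCREB2 in 3 of 4 lines and with shCREB3 in 2, with a 95% confidence interval of -0.14 to 0.09 for the average. PPAT, the first committed step, ranged between 9.33 and 9.97 over the 12 arrays and had a difference of -0.29 (standard error 0.10, adjusted p = 0.177) with shCREB3.

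None of the 5 pyrimidine enzymes passed the test for either shRNA. CTPS, which makes CTP from UTP, had log2 signals of 10.38, 9.96, 9.82 and 9.88 with shCREB2, 10.47, 9.97, 10.47 and 10.10 with shCREB3 and 10.43, 10.21, 10.49 and 10.0040 with shControl. It was lowest with shCREB2 in all 4 lines, with -0.66 in Nalm6, and the difference over the lines was -0.27 (standard error 0.10, adjusted p = 0.132). CAD, the enzyme that starts the pyrimidine ring, had log2 signals of 8.60, 8.54, 9.12 and 8.73 with shCREB2, 8.33, 8.52, 8.90 and 8.62 with shCREB3 and 8.47, 8.58, 9.21 and 8.80 with shControl. With shCREB3 it lay below shControl in 4 of 4 lines, at -0.17 (standard error 0.06, adjusted p = 0.173). UMPS, the gene with the full CRE, ended between 6.99 and 7.14 over the 12 arrays and passed the detection p-value on 4 of them only. DHODH, the mitochondrial step, passed it on 10 of 12 arrays, at 7.0027 to 7.29. Signals this near to background leave little room to see a fall, and the averages were -0.05 for UMPS and -0.01 for DHODH. CTPS2 did not differ between vectors beyond its spread (average 0.01, 95% confidence interval -0.10 to 0.13) and is described with the lines.

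Among the salvage enzymes PNP fell and DGUOK rose with shCREB2, and DCK lay above shControl in all 4 lines with shCREB3. PNP, which splits purine nucleosides into base and sugar phosphate, had log2 signals of 9.96, 9.02, 9.91 and 9.76 with shCREB2, 10.42, 9.44, 10.29 and 9.77 with shCREB3 and 10.50, 10.17, 10.65 and 10.04 with shControl. In each of the 4 lines both shCREB arrays lay below shControl, and the lowest difference, -1.16, was that of shCREB2 in Molt4. PNP fell by 0.68 on the log2 scale (standard error 0.12, adjusted p = 0.014) with shCREB2, and the difference with shCREB3 was -0.36 (standard error 0.12, adjusted p = 0.157). DGUOK, the mitochondrial kinase for deoxyguanosine, had log2 signals of 11.75, 11.55, 11.67 and 11.28 with shCREB2, 11.69, 11.44, 11.14 and 11.24 with shCREB3 and 11.53, 11.25, 10.95 and 11.13 with shControl. All 8 shCREB arrays lay above the shControl array of their line, with Nalm6 and shCREB2 highest above it. DGUOK rose by 0.34 in log2 (standard error 0.09, adjusted p = 0.044) with shCREB2, against 0.17 (standard error 0.09, adjusted p = 0.372) with shCREB3. Of the 4 probes for DGUOK, the 3 brightest had shCREB2 differences of 0.34, 0.27 and 0.28, and the dimmest, detected on 8 arrays, had -0.02. DCK, the cytosolic kinase that activates cytarabine, had log2 signals of 9.85, 10.08, 9.90 and 9.93 with shCREB2, 9.92, 10.24, 10.53 and 9.81 with shCREB3 and 9.69, 9.88, 9.93 and 9.68 with shControl. With shCREB3 it was above shControl in 4 of 4 lines, at 0.33 (standard error 0.10, adjusted p = 0.122).

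ADA, which deaminates adenosine and deoxyadenosine, had log2 signals of 13.33, 12.68, 9.59 and 11.32 with shCREB2, 13.65, 13.24, 10.64 and 11.38 with shCREB3 and 13.54, 13.27, 10.47 and 11.43 with shControl. Within each line the shCREB2 array was the lowest of the 3, and the difference with shCREB2 was -0.45 (standard error 0.13, adjusted p = 0.065). UCK2, a kinase for uridine and cytidine, had log2 signals of 9.76, 8.92, 8.20 and 8.50 with shCREB2, 10.07, 9.38, 9.46 and 8.82 with shCREB3 and 9.83, 9.48, 9.17 and 8.84 with shControl. It was below shControl with shCREB2 in 4 of 4 lines, with a difference of -0.49 (standard error 0.14, adjusted p = 0.066). APRT, which salvages adenine, had log2 signals of 10.73, 10.15, 9.76 and 9.82 with shCREB2, 10.68, 10.22, 9.61 and 9.78 with shCREB3 and 10.56, 10.21, 9.53 and 9.75 with shControl. HPRT1, which salvages hypoxanthine and guanine, had log2 signals of 10.86, 11.30, 11.28 and 11.48 with shCREB2, 10.79, 11.30, 11.38 and 11.42 with shCREB3 and 10.86, 11.26, 11.36 and 11.47 with shControl. The line means spanned 1.02 for APRT and 0.62 for HPRT1, more than the vectors did within any line, though some pairs of lines lay close together. ADK, the adenosine kinase, had log2 signals of 9.62, 10.22, 10.57 and 10.17 with shCREB2, 9.37, 10.21, 10.69 and 10.25 with shCREB3 and 9.28, 10.08, 10.62 and 10.31 with shControl. NT5C2, a cytosolic nucleotidase that is mutated in some relapsed leukemias, had log2 signals of 9.74, 9.83, 10.37 and 9.77 with shCREB2, 10.11, 10.41, 10.34 and 9.94 with shCREB3 and 9.92, 10.11, 10.11 and 9.95 with shControl. The averages of these last 4 did not pass the test, at 0.08 for APRT, -0.01 for HPRT1, 0.07 for ADK and 0.04 for NT5C2. NME1, a nucleoside diphosphate kinase, lay between 12.77 and 13.17 on all 12 arrays, with an average difference of -0.09.

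**Figure D3:**
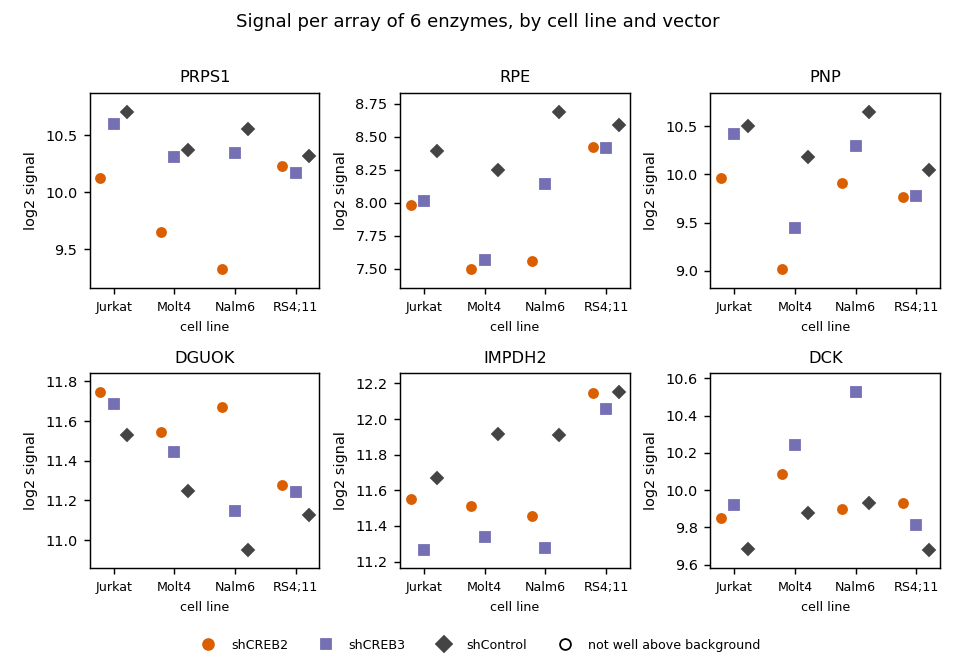
Log2 signal on each array (1 point per array) of PRPS1, RPE, PNP, DGUOK, IMPDH2 and DCK by cell line, with shCREB2, shCREB3 and shControl from left to right. The shControl point is the highest of its line for PRPS1, RPE, PNP and IMPDH2 in all 4 lines and the lowest of its line for DGUOK in all 4.

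These differences were largest in Nalm6 and smallest in RS4;11. The median size of the difference over the 33 enzymes was 0.26 for shCREB2 in Nalm6, 0.15 in Jurkat, 0.14 in Molt4 and 0.10 in RS4;11, against 0.18, 0.11, 0.13 and 0.08 in the same lines over all genes. With shCREB3 it was 0.16 in Nalm6, 0.13 in Molt4, 0.11 in Jurkat and 0.06 in RS4;11, against 0.13, 0.12, 0.10 and 0.07 in the same lines over all genes. On the shCREB2 array of Nalm6, 9 of the 33 enzymes differed by more than 0.5, where 15.9% of all genes did. In RS4;11 0 of 33 did with either shRNA, where 0.408% of all genes did with shCREB2 and 0.168% with shCREB3. Genes of proliferation were low on some of the same arrays, although 0 of 11 passed the test with shCREB2. Of these 11 genes, all detected, 11 were lower with shCREB2 in Nalm6, with a median of -0.99, and 11 in Molt4, with -0.18, while the median was -0.04 in Jurkat and -0.03 in RS4;11. With shCREB3, 11 were lower in Nalm6, with a median of -0.26, where IMPDH2 had its lowest difference, -0.63, and the median was -0.08 in Jurkat, -0.05 in Molt4 and -0.01 in RS4;11. Their summed log2 signal was 14.08 to 15.00 over the shCREB2 arrays, 14.77 to 15.10 over the shCREB3 arrays and 14.95 to 15.16 over the shControl arrays. MYC, a regulator of nucleotide synthesis genes, had log2 signals of 9.72, 9.14, 9.19 and 10.35 with shCREB2, 9.76, 9.93, 11.26 and 10.62 with shCREB3 and 10.03, 10.14, 11.21 and 10.60 with shControl. Its difference with shCREB2 was -0.90 (standard error 0.28, adjusted p = 0.076). Their part in the differences of the enzymes was not tested. Without the shCREB2 array of Nalm6, PNP had a shCREB2 difference of -0.66, PRPS1 of -0.48, RPE of -0.46 and DGUOK of 0.22, and all 4 still passed the test.

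The shRNAs were then compared with each other, since a call with one and not the other does not show that they differ. Of the 33 enzymes, 3 were higher with shCREB3 than with shCREB2 (UCK2, PRPS1 and ADA), where 7.03% of all genes were called higher, and 2 were lower (PGD and TALDO1), where 7.55% were called lower. The shControl arrays enter this comparison only through the estimate of the spread. UCK2 differed by 0.59 (standard error 0.14, adjusted p = 0.026), higher with shCREB3 in 4 of 4 lines. The difference of PRPS1 was 0.52 (standard error 0.15, adjusted p = 0.044), in the same direction in 3 of 4 lines, with RS4;11 as the exception. ADA differed by 0.50 (standard error 0.13, adjusted p = 0.033), in 4 of 4 lines. For PGD and TALDO1, both in the pentose phosphate pathway, the averages of the shRNAs lay on opposite sides of shControl, although none of the 4 differences from shControl passed the test. PGD was at -0.19 with shCREB3 (adjusted p = 0.084) and 0.07 with shCREB2 (adjusted p = 0.373; 0.00 in Jurkat), a difference of -0.27 (standard error 0.05, adjusted p = 0.0086). TALDO1 was at -0.18 with shCREB3 (adjusted p = 0.249) and 0.20 with shCREB2 (adjusted p = 0.136), a difference of -0.39 (standard error 0.08, adjusted p = 0.011). Both were lower with shCREB3 in 4 of 4 lines. PGD and TALDO1 kept their calls in 14 of the 16 fits without 1 line or 1 array, all but those without Jurkat or without Molt4. UCK2 kept its call in 10 of them, ADA in 7 and PRPS1 in 4. Without the shCREB2 array of Nalm6 PRPS1 did not pass (0.34, adjusted p = 0.060), while UCK2 (0.40) and ADA (0.34) did. Without Nalm6 altogether UCK2 was at 0.36 and passed, and ADA was at 0.32 (adjusted p = 0.051). UCK2 lost its call without Jurkat, Molt4, or any of the shCREB3 arrays of Jurkat, Molt4 and Nalm6 or the shCREB2 array of Molt4. ADA kept it only without RS4;11 or 1 of its arrays, without the shControl array of Jurkat or Nalm6, or without the shCREB2 array of Nalm6, and PRPS1 only without RS4;11, its shCREB2 or shCREB3 array, or the shControl array of Nalm6. Both ADA and PRPS1 lost their calls with normexp and with no detection filter. With no pairing by line 0 of the 33 passed.

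**Figure D4:**
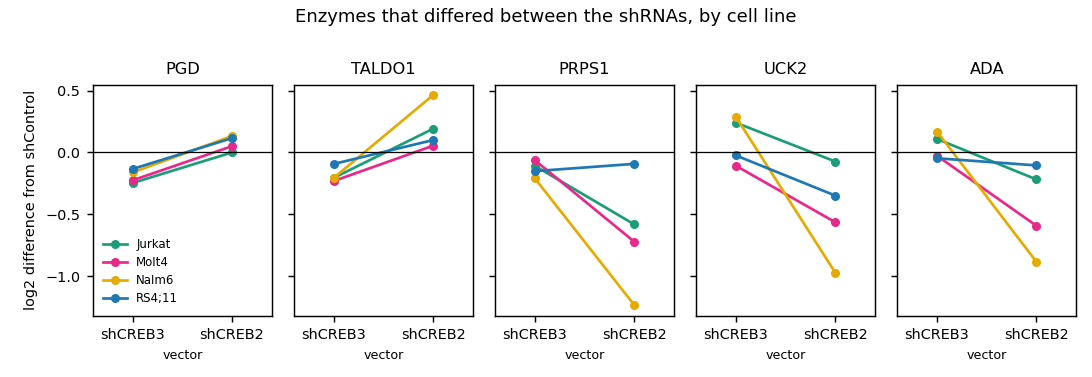
Log2 difference from the shControl array of the same line with shCREB3 (left) and shCREB2 (right) for PGD, TALDO1, PRPS1, UCK2 and ADA, 1 line per cell line. PGD and TALDO1 are below 0 with shCREB3 in all 4 lines, UCK2 and ADA are lower with shCREB2 in all 4, and PRPS1 is nearly flat in RS4;11.

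Other genes of the pathways, from a separate list of 44 of which 36 were detected, gave the surroundings. With both shRNAs averaged 0 of the 36 passed, where 0.967% of all genes did, and their median was 0.00. The lowest was AK3L1, an adenylate kinase of mitochondria, at -0.51 (standard error 0.11, adjusted p = 0.064 in limma). With shCREB2, 4 of the 36 rose, among them AK3, NME7 and RBKS, where 3.73% of all genes were called higher. With the same shRNA 2 fell (AK3L1 and CMPK1), where 4.27% were called lower. CMPK1, the kinase for CMP and UMP, fell by 0.41 on the log2 scale (standard error 0.07, adjusted p = 0.015), and RBKS, ribokinase, rose by 0.34 in log2 (standard error 0.08, adjusted p = 0.03). With shCREB3, 1 of the 36 fell, NME2, where 1.18% of all genes were called lower. NME2 fell by 0.52 on the log2 scale (standard error 0.10, adjusted p = 0.033 in limma). NME2 lies next to NME1 and has a closely similar sequence, and whether their probes tell the pair apart was not tested. Between the shRNAs 8 of the 36 passed. Higher with shCREB3 than with shCREB2 were 3 (CMPK1, DCTD and NT5M), where 7.03% of all genes were called higher. Lower were 5, among them AK3, NME6, NME7 and RBKS, where 7.55% of all genes were called lower.

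The levels of most enzymes differed between the cell lines. In an F-test over the 4 lines 26 of the 33 passed, where 75.0% of all genes did, and the exceptions were DCK, DHODH, NME1, PGD, PPAT, PRPS1 and UMPS. This test sets the lines against the spread left within them once the vector averages are removed, and it says nothing of lineages. PRPS2 and CTPS2 are among the 26, and their probes met the detection filter only through the lines where they are bright. Some difference between lines was thus built in for them, and their calls and spans are given as a description only. Line means spanned 0.03 for UMPS up to 3.27 for ADA, followed by PRPS2, CTPS2, ADK, UCK2 and APRT. ADA had line means of 13.51 in Jurkat, 13.06 in Molt4, 10.23 in Nalm6 and 11.38 in RS4;11. Its difference between the lineages is given below and did not pass the test. PRPS2 was detected on all 9 arrays of Jurkat, Molt4 and RS4;11, with line means of 9.53, 9.38 and 9.10, and on none of the 3 arrays of Nalm6, whose mean was 6.82. A second PRPS2 probe was likewise detected on 9 arrays and on none of Nalm6. Against the detection limit PRPS2 was at least 5.43-fold higher in Jurkat, at least 4.89-fold in Molt4 and at least 4.04-fold in RS4;11 than in Nalm6. PRPS1, the paralog, did not pass the test between the lines, with a line mean of 10.08 in Nalm6 and of 10.11 to 10.48 in the others.

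Between the lineages, with the line as the unit, 1 of the 33 enzymes, CTPS2, was called lower in T-ALL, where 0.376% of all genes were. Its probe met the detection filter through the BCP-ALL arrays alone, so that the lineages had to differ, and its call is given as a description only. CTPS2, the second CTP synthetase, had log2 signals of 6.67, 6.70, 8.72 and 9.26 with shCREB2, 6.73, 6.73, 8.83 and 9.14 with shCREB3 and 6.66, 6.75, 8.69 and 9.23 with shControl. It was detected on 0 of 6 T-ALL arrays and on 6 of 6 BCP-ALL arrays. Mean log2 signals of the probe used were 6.70 in T-ALL and 8.98 in BCP-ALL. Against the detection limit this probe was at least 3.74-fold lower in T-ALL than in BCP-ALL (adjusted p = 0.039 in the fit of measured values). CTPS2 was not called in the gene means, with median scaling, with no detection filter or with the mean of the probes. A second, dimmer probe was detected on the same 6 arrays. It differed by -0.77 between the lineages, against -2.28 for the probe used, so the bound holds for that probe only. The 2 remaining probes were detected on no array. CTPS2 was called in 14 of the 16 fits without 1 line or 1 array, and not without Jurkat (adjusted p = 0.41) or without Molt4 (adjusted p = 0.31), which leave 1 T-ALL line. CTPS, the paralog, differed by 0.11 (95% confidence interval -0.44 to 0.66). ADA was 2.48 higher in T-ALL (standard error 0.45, adjusted p = 0.146) and IMPDH1 had -0.78 (standard error 0.12, adjusted p = 0.113), neither past the test with 2 lines against 2. The 2 dimmer IMPDH1 probes differed by -0.09 and -0.10. APRT differed by 0.72 (standard error 0.20, adjusted p = 0.232) and ADK by -0.64 (standard error 0.32, adjusted p = 0.394). The other 2 ADK probes that were detected gave -0.31 and -0.10.

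**Figure D5:**
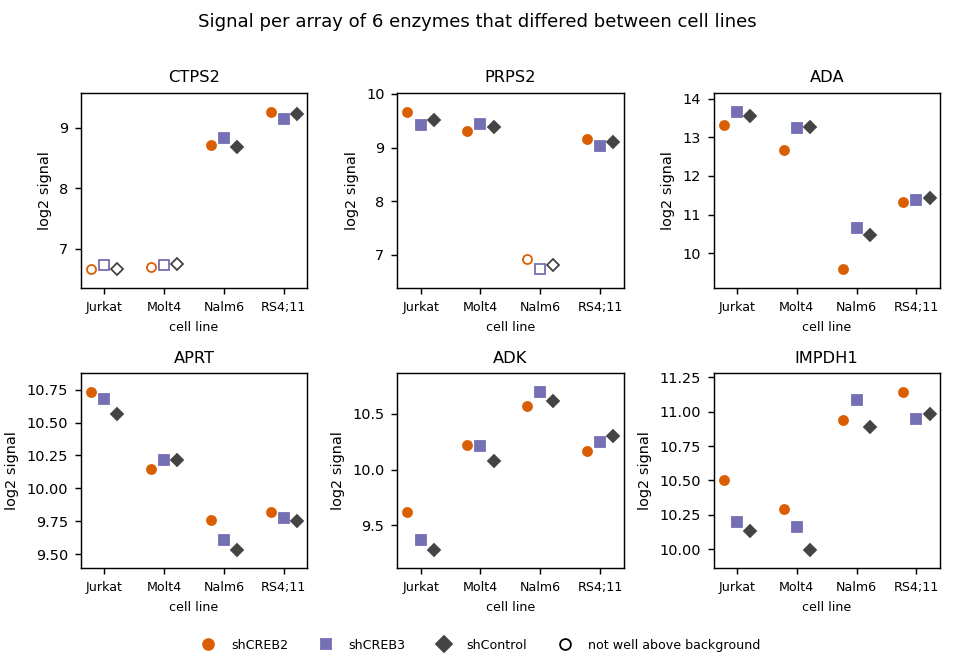
Log2 signal on each array (1 point per array) of CTPS2, PRPS2, ADA, APRT, ADK and IMPDH1 by cell line, with shCREB2, shCREB3 and shControl from left to right and open points where the probe was not well above background. The points are open for CTPS2 in Jurkat and Molt4 and for PRPS2 in Nalm6, and ADA is highest in Jurkat and Molt4.

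The response itself was compared between lineages, as the average of both shRNAs minus shControl in the T-ALL lines against that in the BCP-ALL lines. Of the 33 enzymes 0 passed, and 0% of all genes did. Unadjusted, 0 of the 33 had a p under 0.05 in limma, where 4.32% of all genes had one. With 2 lines against 2 the intervals are wide: the difference in response was -0.22 for PNP (95% confidence interval -0.71 to 0.27), -0.05 for RPE (-0.57 to 0.47), 0.05 for PRPS1 (-0.39 to 0.50) and -0.08 for IMPDH2 (-0.49 to 0.33). The smallest p belonged to ADK, at 0.22 (-0.03 to 0.46). The shCREB2 difference of PRPS1 was -0.58 in Jurkat and -0.72 in Molt4, against -1.23 in Nalm6 and -0.09 in RS4;11.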

How the data were processed

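RNA of 4 leukemia cell lines, each with shCREB2, shCREB3 or shControl, was hybridized to 12 Illumina BeadChips, HumanHT-12 v4.0 per the study's methods, while the series' design text names another version. The authors read the arrays with GenomeStudio and quantile-normalized them. The deposited signals are raw intensities per probe, each beside a detection p-value, and the deposited normalized values are natural log gene means. In 98.1% of the raw signals the decimal mark was lost before deposit. It was restored from the order of magnitude that matched the normalized gene means, for 47314 of 47323 probes, with a median deviation of 0.00094% and 0 conflicts with the order of the detection p-values.

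Without background subtraction, the restored values were then quantile-normalized and turned to log2. A gene was kept if a probe had a detection p of under 0.01 on 4 or more arrays, and its brightest such probe stood for it. Differences were tested with limma 3.58.1 in R 4.3.3 over all 12507 genes, with Benjamini-Hochberg adjustment at 0.05. The average of both shRNAs and the response by lineage were tested on the differences within the 4 lines. Each shRNA and the contrast between them came from the same fit of all 12 arrays, with the line as block. They thus share the same estimate of the spread for a gene. Lines were tested by an F-test in that same fit, with the vector as block, and lineages over line means. Arrays were paired by cell line, and 12 of 12 correlated best with their own line (0.968 to 0.997 within lines, 0.874 to 0.982 between). A bound against probes not well above background is the mean of the brighter lines over the lowest signal of probes well above background, taken per array. Named genes are the whole list, with per-array values for those called in any comparison and the largest 2 differences per role and direction. Members and gene lists were chosen with earlier results of these data known. Alternatives were normexp background correction, median scaling, the deposited gene means, other detection filters, the mean of probes, unpaired fits, the methods' t-test, and leaving out lines or arrays. Some results of the list of other pathway genes are not reported here. The shRNA sequences are not given in the sources used here. The number of arrays, and not counting depth, limits the precision.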

Additional observations from a re-analysis of the deposited data

Results flagged for a closer look

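Among 165 groups of 4 arrays or 4 differences (99 of levels and 66 of differences), 6 held a value far from the other 3 by Dixon's criterion, where chance alone gives about 1 in 20. PRPS2 was far lower in Nalm6 than in the other lines. Its log2 signal there was 6.73 with shCREB3 (9.03 to 9.44 in the others) and 6.81 with shControl (9.11 to 9.51 in the others). Its probe met the detection filter only through those other lines, so these flags are a description only. IMPDH2 was higher in RS4;11 than in the other lines, at a log2 signal of 12.14 with shCREB2 (11.46 to 11.55 in the others) and 12.06 with shCREB3 (11.27 to 11.34 in the others). NT5C2, the nucleotidase, had a log2 signal of 10.37 in Nalm6 with shCREB2 against 9.74 to 9.83 in the others. The shCREB3 difference of PRPS2 was 0.0614 in Molt4 and -0.09 to -0.07 in the others. The response of 0 of the 33 enzymes passed the test between the lineages in limma.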

How the results depend on the processing

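No called difference of an enzyme changed sign in any of 4365 recomputed differences. The 231 sign changes were of enzymes that did not pass, with a size of at most 0.22, and 113 values lost a call while 50 gained one. For both shRNAs averaged the 0 enzymes that passed became 3 among genes detected on all arrays (DCK, PNP and RPE) and 1 with all arrays in 1 fit and the line as block (PNP). For shCREB2 the 4 became 2 with no filter on detection, 0 with the methods' t-test after Benjamini-Hochberg and 0 with no replicate block. For shCREB3 the 1 became 0 with normexp, 0 with median scaling, 0 in the deposited gene means, 0 with no filter, 0 with the t-test and 0 with no replicate block. Unadjusted, the methods' t-test gave 3 of the 33 enzymes for shCREB2, where it gave 1771 of the 12507 genes. Of the 4 called for shCREB2 in limma, only PNP was among these 3. For shCREB3 the t-test gave 11 enzymes, where it gave 1971 genes. For shCREB3 minus shCREB2 the 5 became 3 with normexp, 3 with no filter and 0 with no replicate block. The 1 between lineages became 0 with median scaling, the deposited gene means, no filter, the mean of probes, and on genes detected on all arrays, where CTPS2 was not tested. The median over the enzymes for shCREB3, -0.03, was -0.0501 with normexp and -0.00138 with median scaling. Leaving out a line or an array gave 0 to 4 enzymes for the average, 0 to 7 for shCREB2, 0 to 4 for shCREB3, 0 to 7 for shCREB3 minus shCREB2, 0 to 0 for the response, 18 to 28 between lines and 0 to 3 between lineages. The shares of all genes that passed in these fits are not given here. Their medians over the enzymes were -0.07 to -0.03 for the average and -0.08 to -0.0044 for shCREB2. For shCREB3 they were -0.0609 to -9.3e-06, and for shCREB3 minus shCREB2 -0.05 to 0.01. The cause of these changes was not tested.

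Over all genes the 121 of 12507 called for the average became 0 with normexp, the deposited gene means, the mean of probes or no replicate block. They became 78 of 31422 genes with no filter and 244 of the 8925 genes detected on all arrays. With all arrays in 1 fit and the line as block they were 137 of 12507. The 1001 called for shCREB2 became 758 of 31422 with no filter, 1 with the t-test and 0 with no replicate block. The 203 for shCREB3 became 76 with normexp, 278 with median scaling and 126 in the deposited gene means. With no filter they were 114 of 31422, and with no replicate block or the t-test 0. The 1823 for shCREB3 minus shCREB2 became 1664 with normexp, 1529 of 31422 with no filter and 4 with no replicate block. The 131 between lineages became 310 with normexp, 132 with median scaling, 126 in the deposited gene means and 134 with the mean of probes. With no filter they were 57 of 31422, and among genes detected on all arrays 8 of 8925. UMPS, DHODH, CTPS2 in T-ALL and PRPS2 in Nalm6 lay at or near background, where a signal limits what can be seen.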
